A study of Mus musculus with 8 samples.

Results

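The tumor necrosis factor (TNF) superfamily comprises cytokine ligands and the receptors that bind them. Its members were taken from a mouse immune panel by their names. They were the genes whose symbols begin with Tnfsf or Tnfrsf, together with Tnf, Lta, Ltb, Ltbr, Cd40, Cd40lg, Cd27, Cd70, Fas and Fasl. This gave 34 of the 750 genes of the panel, of which 16 were ligands and 18 were receptors. RNA came from whole peritoneal tumors that grew from MC38 cells, a murine colon cancer line, implanted into the abdominal cavity of male Wild-type C57BL/6 mice obtained at 7 to 8 weeks of age. From day 7 after implantation, one group received the STING agonist RR-CDA into the peritoneum, by the study's schedule as 2 injections of 15 µg, and the other group the same volume of PBS. STING (stimulator of interferon genes) is a sensor pathway for cytosolic cyclic dinucleotides. The tumors were collected 10 days after the first injection, 4 in each group, and were compared to ask how the immune genes of the tumor tissue differ after STING activation.

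Most ligands of the family are made as membrane proteins that act as trimers, on neighboring cells or after shedding, and each binds 1 or more receptors. Receptors with a death domain can recruit caspases, and most others recruit TRAF adaptors and activate NF-kB. In tumors, the family is known for costimulation of T cells, for licensing of antigen-presenting cells through CD40, for the survival of B cells, and for the killing of target cells.

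Transcripts were counted on the NanoString nCounter platform, which counts barcoded probes bound to single RNA molecules without amplification. The counts of the 750 genes summed to 285795, 301429, 403150 and 241724 in PBS-treated tumors 1 to 4 and to 311523, 241506, 304728 and 414698 in STING agonist-treated tumors 1 to 4. Normalized counts below are counts divided by a factor for each tumor, made from the geometric mean of 20 housekeeping genes. PBS-treated tumors 2 and 4 differed by less than the sampling noise over 358 genes of moderate count, where chi-square over degrees of freedom came to 0.404, and the 11 other pairs within a group gave 5.89 to 12.6. They were therefore averaged and counted as 1 sample, so that the comparisons have n = 3 against n = 4. This averaged sample stood apart in leukocyte genes. Ptprc, which encodes the pan-leukocyte protein CD45, was at 42.0 normalized counts in it, against 108 and 111 in PBS-treated tumors 1 and 3. STING agonist-treated tumor 4 stood apart in hepatocyte genes, which summed to 1422 normalized counts there and to at most 69.2 in every other tumor. The labels give the tissue as colon. Of the epithelial markers, Epcam and Cdh1 were on the panel and summed to between 15.9 and 48.3 normalized counts. The study pooled 2 experiments. The labels do not give the experiment of each tumor or say that the tumors of a group came from separate animals, so p-values measure the spread between these tumors.

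No member passed an adjusted p under 0.05 in edgeR's quasi-likelihood test, and neither did any of the 750 genes (0%). At an unadjusted p under 0.05, 4 of the 34 members were higher after the STING agonist, which were the ligands Tnfsf10 and Ltb and the receptors Cd40 and Tnfrsf14, and 0 were lower. Over the panel, 133 genes (17.7%) were higher and 10 (1.33%) were lower at this line. The groups did not overlap in 3 members, all higher, against 126 higher (16.8%) and 11 lower (1.47%) among all panel genes. After TMM normalization the panel split into 70 higher and 48 lower genes without overlap. The members' shares with housekeeping scaling are thus no larger than those of the panel. The Wald test of DESeq2 called 52 panel genes at an adjusted p under 0.05 with the same scaling, among them Tnfsf10 and Cd40, and 21 with its own size factors, among them 0 members.

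The median log2 fold change was 0.15 over the ligands and 0.10 over the receptors, beside 0.21 over the panel, and both medians were below 0 after TMM normalization, at -0.090 and -0.13. TMM normalization, which centers the tumors on the bulk of the panel, moved the median of all genes by -0.23. With it, an unadjusted p under 0.05 was reached by 87 panel genes in the higher direction and by 40 in the lower, so that 68.5% were higher in place of 93.0%. Relative to the panel median, Tnfsf10 was higher by 0.85 with housekeeping scaling and by 0.86 with TMM normalization, Cd40 by 0.74 and 0.74, Ltb by 1.03 and 1.03, and Tnfrsf14 by 0.48 and 0.51. A change of scale moves nearly all genes of a tumor by the same factor, so the likeness of these values is no test of the differences. Of the members, 19 had a mean count above the background of 8.62 counts. Background was set 2 SD over the average of the 8 probes without a target. It is the mean over the 8 tumors, whose values ran from 5.03 to 11.3 counts. The other 15 members had mean counts at or below 8.62, so their differences are of low precision. Above background were 55.9% of the members and 81.6% of the panel, so low counts weigh more in the members' medians. Among genes above background, the median log2 fold change was 0.15 over the ligands, 0.22 over the receptors and 0.25 over the panel.

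**Figure D1:**
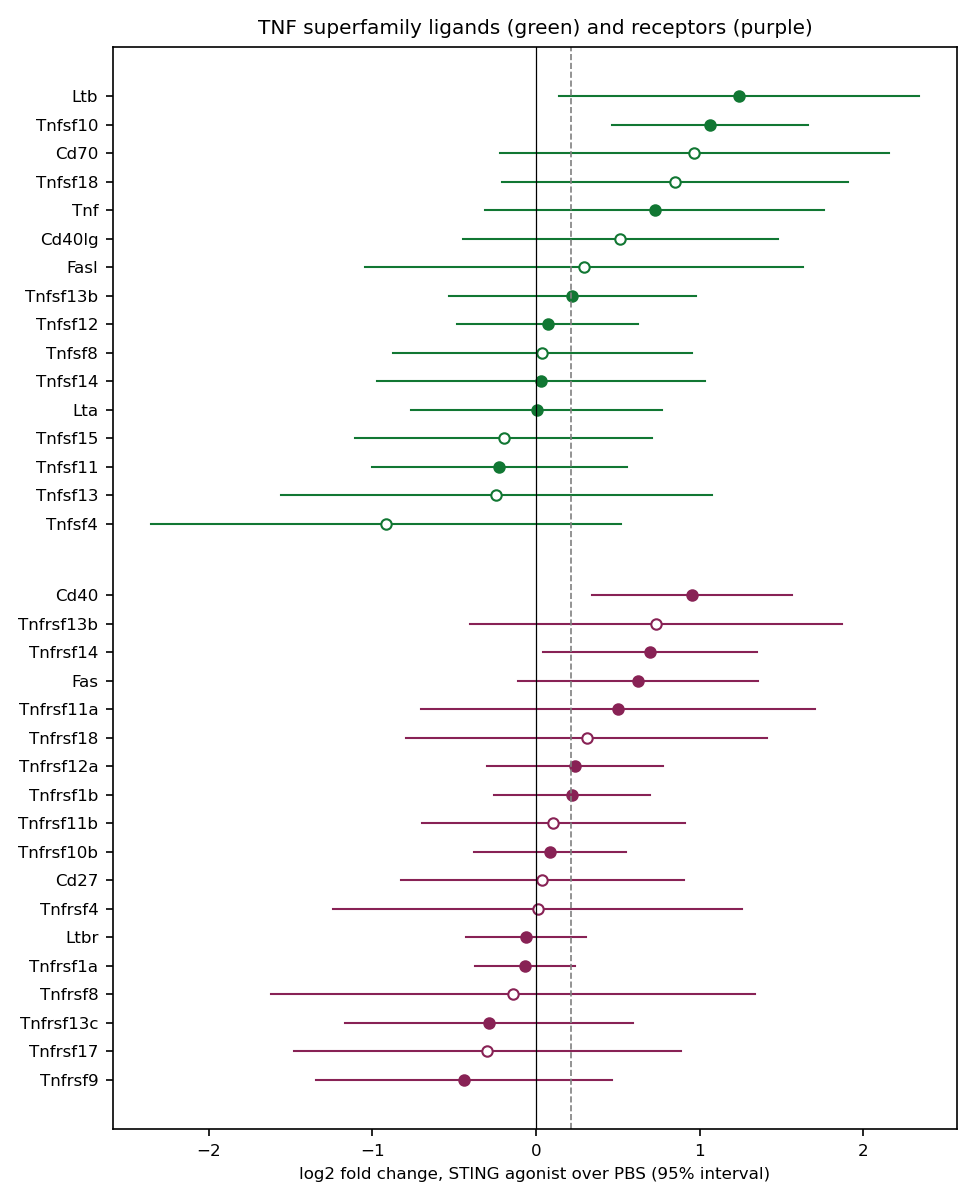
Log2 fold change of each ligand (green) and receptor (purple), STING agonist over PBS, with its 95% confidence interval from edgeR; filled points have a mean count above background, open points do not, and the dashed line is the panel median of 0.21. The intervals of Tnfsf10, Ltb, Cd40 and Tnfrsf14 lie above 0, and 24 of 34 members have a value above 0, which falls to 13 after TMM normalization. With housekeeping scaling, 531 of the 750 panel genes have a value above 0.

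Promoters are shown for the members that were higher at an unadjusted p under 0.05, none of which passed an adjusted p under 0.05. Whether these genes moved together was not tested. RefSeq promoters (GRCm38.p6) were matched by symbol for 27 of the 34 members. Cd40, Cd40lg, Cd70, Tnfrsf10b, Tnfrsf11b, Tnfsf12 and Tnfsf4 were not matched. The 250 bases before the start are printed 5′ to 3′ for Tnfsf10 (chr3:27316827-27317076, plus strand), Ltb (chr17:35194257-35194506, plus strand) and Tnfrsf14 (chr4:154928078-154928327, minus strand). Capitals mark matches, on either strand, to the GAS core TTCNNNGAA, the ISRE core (GAAA, any 2 bases, GAAA) or the NF-kB consensus.
Tnfsf10: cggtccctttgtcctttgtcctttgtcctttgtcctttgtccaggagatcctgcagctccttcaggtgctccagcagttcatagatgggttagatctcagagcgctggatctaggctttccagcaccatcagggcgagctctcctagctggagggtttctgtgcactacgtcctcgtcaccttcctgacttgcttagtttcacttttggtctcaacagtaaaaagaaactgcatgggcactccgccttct
Ltb: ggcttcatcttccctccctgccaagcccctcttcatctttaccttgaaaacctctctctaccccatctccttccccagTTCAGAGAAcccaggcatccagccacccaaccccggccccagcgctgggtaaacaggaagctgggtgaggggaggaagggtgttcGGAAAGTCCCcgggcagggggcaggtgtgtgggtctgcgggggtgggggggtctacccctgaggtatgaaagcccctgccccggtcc
Tnfrsf14: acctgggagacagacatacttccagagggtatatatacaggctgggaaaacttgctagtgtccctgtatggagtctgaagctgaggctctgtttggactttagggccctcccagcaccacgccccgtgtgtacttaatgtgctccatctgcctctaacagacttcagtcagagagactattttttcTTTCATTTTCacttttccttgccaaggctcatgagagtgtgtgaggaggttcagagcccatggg
In Ltb the first run of capitals is a GAS core and the next one an NF-kB consensus, in Tnfrsf14 the run is an ISRE core, and Tnfsf10 has no match in this window. The GAS core was present in 7 of 27 member genes (25.9%) and in 8.13% of all 27025 genes of the promoter table. These members were Fas, Lta, Ltb, Tnfrsf18, Tnfrsf1a, Tnfrsf1b and Tnfrsf9, of which Ltb alone was higher at an unadjusted p under 0.05. The ISRE core was present in 4 member genes (14.8%), Tnfrsf14, Tnfrsf17, Tnfrsf1b and Tnfsf13b, and in 3.46% of all genes. The NF-kB consensus was present in 3 member genes (11.1%), Ltb, Tnfrsf8 and Tnfrsf9, and in 4.46% of all genes. A gene with several starts was counted once, and a match describes the letters and not a site in use. The shares were not computed over the immune panel alone.

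Among the ligands, Tnfsf10, which encodes the death ligand TRAIL, had the lowest p. Its normalized count was 37.0, 32.3, 49.0 and 30.6 in PBS-treated tumors 1 to 4 and 85.3, 78.2, 68.5 and 97.1 in STING agonist-treated tumors 1 to 4. All 4 treated tumors lay above every PBS-treated tumor. The means were 39.2 ± 8.96 (SD, n = 3) and 82.3 ± 12.03 (SD, n = 4), a 2.10-fold difference. The log2 fold change was 1.06 with an SE of 0.26 (edgeR, adjusted p = 0.171). Its unadjusted p was under 0.05 in each of the 14 other settings tried, with a log2 fold change between 0.82 and 1.26.

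Ltb encodes lymphotoxin beta, which anchors lymphotoxin alpha to the cell surface. It was counted at 14.8, 5.21, 17.3 and 5.32 normalized counts in PBS-treated tumors 1 to 4 and at 43.2, 20.8, 18.4 and 39.7 in STING agonist-treated tumors 1 to 4. The groups did not overlap, but PBS-treated tumor 3 and STING agonist-treated tumor 3 lay close together. The means were 12.6 ± 6.03 (SD, n = 3) and 30.5 ± 12.7 (SD, n = 4), and the log2 fold change was 1.24 with an SE of 0.48. The adjusted p was 0.223 (edgeR). The log2 fold change was 1.35 without PBS-treated tumor 1, 0.92 without PBS-treated tumors 2 and 4, 1.03 without STING agonist-treated tumor 1 and 1.07 without STING agonist-treated tumor 4, and in each of these cases it no longer passed the unadjusted line. Ltb did not pass it in the methods' test either (1.27), and passed it in 9 of 14 other settings. The raw counts of Ltb were 4 to 45, so counting error is large in it.

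The remaining ligands did not pass the unadjusted line. Tnf, the founding cytokine of the family, was at 12.03, 12.5, 13.0 and 9.31 normalized counts in the PBS-treated tumors and at 32.7, 14.7, 9.20 and 24.7 in STING agonist-treated tumors 1 to 4. It was thus high in STING agonist-treated tumors 1 and 4 and within or close to the range of the controls in the other two. Its log2 fold change was 0.72 with an SE of 0.46 (edgeR, adjusted p = 0.419). It was 0.41 without STING agonist-treated tumor 1 and 0.97 without STING agonist-treated tumor 3, and only in the latter of the 13 other settings that gave a value did Tnf pass the unadjusted line. Tnf was chosen for this description after its values were seen. Of the ligands above background, Lta (lymphotoxin alpha), Tnfsf11 (the osteoclast factor RANKL), Tnfsf12 (TWEAK), Tnfsf13b (the B cell survival factor BAFF) and Tnfsf14 (LIGHT) had log2 fold changes between -0.22 and 0.22. At or below background were Cd40lg, Cd70, Fasl, Tnfsf4, Tnfsf8, Tnfsf13, Tnfsf15 and Tnfsf18, most of which are made by activated lymphocytes or antigen-presenting cells. Their log2 fold changes ran from -0.92 for Tnfsf4 to 0.97 for Cd70. These values rest on few counts and moved with single samples. Cd70 passed the unadjusted line without PBS-treated tumor 3 (1.58) and was at 0.51 without PBS-treated tumor 1. Tnfsf4 passed it as lower without PBS-treated tumors 2 and 4 (-1.33) but was at 0.22 without PBS-treated tumor 3, which had 20.2 normalized counts against 1.33 to 7.33 in every other tumor. Tnfsf18 passed it with all 8 tumors separate (1.10) and was at 0.59 without PBS-treated tumors 2 and 4.

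Among the receptors, Cd40, the activating receptor of antigen-presenting cells, had the lowest p. Its normalized count was 35.2, 55.2, 63.4 and 50.5 in PBS-treated tumors 1 to 4 and 103, 83.1, 90.9 and 117 in STING agonist-treated tumors 1 to 4. All 4 treated tumors lay above every PBS-treated tumor. The means were 50.7 ± 14.3 (SD, n = 3) and 98.6 ± 14.9 (SD, n = 4), a 1.94-fold difference. The log2 fold change was 0.96 with an SE of 0.27 (edgeR, adjusted p = 0.175). Its unadjusted p was under 0.05 in each of the 14 other settings tried, with a log2 fold change of at least 0.71.

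Tnfrsf14 encodes HVEM, a receptor of lymphocytes and other cells that binds LIGHT. Its normalized count was 86.0, 51.0, 118 and 59.8 in PBS-treated tumors 1 to 4 and 160.0, 147, 103 and 153 in STING agonist-treated tumors 1 to 4. The groups overlapped, since STING agonist-treated tumor 3 lay below PBS-treated tumor 3. The log2 fold change was 0.70 with an SE of 0.29 (edgeR, adjusted p = 0.241). It was 0.49 after TMM normalization, 0.69 without PBS-treated tumor 1 and 0.46 without PBS-treated tumors 2 and 4. It was 0.63, 0.67 and 0.65 without STING agonist-treated tumors 1, 2 and 4 in turn. With DESeq2's own size factors it was 0.46, and in the methods' test 0.70. In none of these cases did Tnfrsf14 pass the unadjusted line, which it passed in 6 of 14 other settings.

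The pair partners of these 4 genes, Tnfrsf10b, Cd40lg, Ltbr and Tnfsf14, did not pass the unadjusted line (edgeR). Tnfrsf10b, the receptor through which TRAIL kills cells in mice, was at 160.1, 207, 245 and 227 normalized counts in PBS-treated tumors 1 to 4 and at 255, 176, 217 and 231 in STING agonist-treated tumors 1 to 4. Cd40lg, the ligand of CD40 on activated T cells, lay below background. It was at 3.70, 2.08, 3.60 and 2.66 normalized counts in the PBS-treated tumors and at 3.50, 6.11, 3.07 and 6.18 in the STING agonist-treated ones. Ltbr, the lymphotoxin beta receptor, was at 369, 357, 375 and 387 normalized counts in the PBS-treated tumors and at 370.2, 281, 363 and 408 in the STING agonist-treated ones. Each of these partners thus had overlapping groups. Tnfsf14 was at 7.40, 6.25, 13.0 and 5.32 normalized counts in the PBS-treated tumors and at 7.01, 14.7, 9.20 and 6.18 in the STING agonist-treated ones. The log2 fold changes were 0.086 for Tnfrsf10b, 0.52 for Cd40lg, -0.062 for Ltbr and 0.030 for Tnfsf14, and those of Tnfrsf10b and Tnfsf14 were below 0 after TMM normalization. The difference between a ligand and its receptor was not tested. Of 22 ligand and receptor pairs on the panel, 11 had both members above background.

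**Figure D2:**
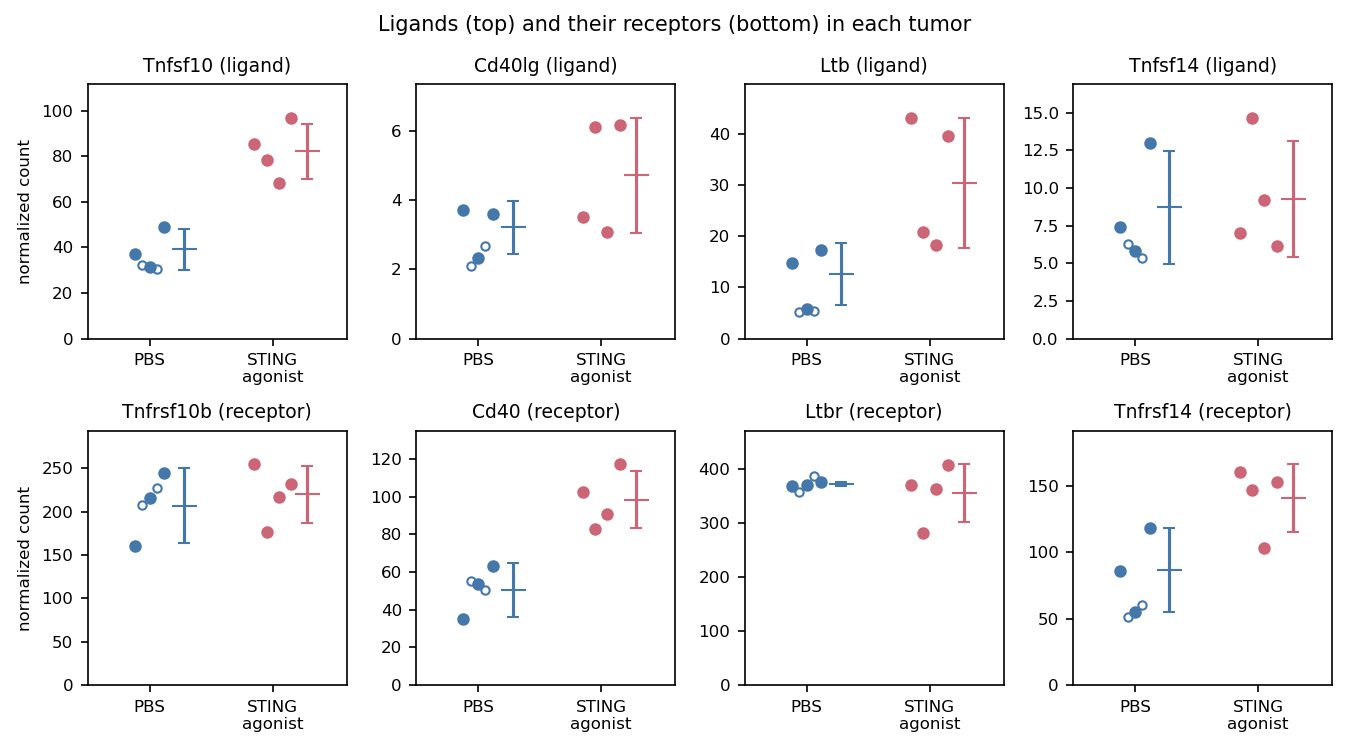
Normalized counts of ligands (top row) and receptors (bottom row) in PBS-treated (blue) and STING agonist-treated (red) tumors, each panel with its own linear axis from 0; filled points are the samples compared, open points are PBS-treated tumors 2 and 4 before averaging, and bars are mean and SD. The STING agonist-treated tumors lie above all PBS-treated ones for Tnfsf10 (68.5 to 97.1), Cd40 (83.1 to 117) and Ltb (18.4 to 43.2), and the groups overlap in the other 5 panels.

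The other receptors were grouped by role. Of the 3 death domain receptors on the panel, Fas had a log2 fold change of 0.62 with an SE of 0.32 (edgeR, adjusted p = 0.332). Fas was at 93.4, 51.0, 106 and 43.9 normalized counts in the PBS-treated tumors and at 100.4, 181, 112 and 117 in the STING agonist-treated tumors. It was thus low in PBS-treated tumors 2 and 4 and high in STING agonist-treated tumor 2, and it was chosen for this description after its values were seen. Its log2 fold change was 0.36 without PBS-treated tumors 2 and 4 and 0.41 without STING agonist-treated tumor 2. With all 8 tumors separate it was 0.78, the 1 of 14 other settings in which Fas passed the unadjusted line. Tnfrsf1a, the main TNF receptor of most tissues, averaged 709 ± 43.5 (SD, n = 3) normalized counts with PBS and 678 ± 55.3 (SD, n = 4) with the STING agonist. Its log2 fold change was -0.065 with a 95% interval of -0.37 to 0.24. It was -0.31 after TMM normalization and -0.33 with DESeq2's own size factors, where Tnfrsf1a passed the unadjusted line as lower.

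Of the 7 lymphocyte costimulatory receptors, Cd40, Tnfrsf14 and Tnfrsf9 were above background. Tnfrsf9, a costimulator of activated T cells, had a log2 fold change of -0.44 with an SE of 0.40 (edgeR, adjusted p = 0.599). It was -0.77 without STING agonist-treated tumor 1, -0.24 without STING agonist-treated tumor 2 and -0.72 after TMM normalization, and passed the unadjusted line in none of the 14 other settings. Cd27, Tnfrsf4, Tnfrsf8 and Tnfrsf18 were at or below background, and Tnfrsf18 passed the unadjusted line without PBS-treated tumor 3 (1.17) and was at -0.0030 without PBS-treated tumor 1. Of the 3 B cell survival receptors, Tnfrsf13c, the receptor of BAFF, was above background with a log2 fold change of -0.29, and Tnfrsf13b and Tnfrsf17 were not. Of the 5 remaining receptors, Tnfrsf11b was below background, and Ltbr, Tnfrsf1b, Tnfrsf11a and Tnfrsf12a were above it. Tnfrsf11a, the receptor of RANKL, was at 7.29 and 5.32 normalized counts in PBS-treated tumors 2 and 4 and between 33.0 and 56.1 in every other tumor. This gap lay within the PBS group, and the log2 fold change of Tnfrsf11a was 0.50 with an SE of 0.53, and 0.050 without PBS-treated tumors 2 and 4.

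Because most members are expressed by leukocytes, each was also set against Ptprc. Ptprc was at 108, 42.7, 111 and 41.2 normalized counts in PBS-treated tumors 1 to 4 and at 257, 166, 140.0 and 267 in STING agonist-treated tumors 1 to 4. Its log2 fold change was 1.24 with an SE of 0.38 (edgeR, adjusted p = 0.181). On the scale of log2(normalized count + 1), the ratio to Ptprc was not higher after the STING agonist for any of the 34 members, and it was higher for 35 of 611 panel genes above background. Ptprc differed by more than every member on this scale, so no member's ratio could be higher. This rests in part on the averaged PBS sample, which was low in Ptprc. Its log2 ratio was 0.35 for Cd40, against -1.60 and -0.80 in PBS-treated tumors 1 and 3. For Tnfsf10 it was -0.40 against -1.52 and -1.16, and for Ltb its -2.65 lay between theirs. Leaving out 1 sample, the log2 fold change of Ptprc ran from 0.92 to 1.46, and the ratios were not recomputed. The difference of the ratio was -0.082 for Ltb, -0.25 for Tnfsf10, -0.34 for Cd40 and -0.57 for Tnfrsf14, each with overlapping groups. Of the 19 members above background, the groups did not overlap in 7, all lower relative to Ptprc. Among these 611 panel genes, Ptprc left out, the same ratio was apart and lower in 288 (47.1%) and apart and higher in 5 (0.818%), so the members' count is no larger than that of the panel. In bulk tissue, more cells that express a gene and more RNA of it per cell cannot be told apart.

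**Figure D3:**
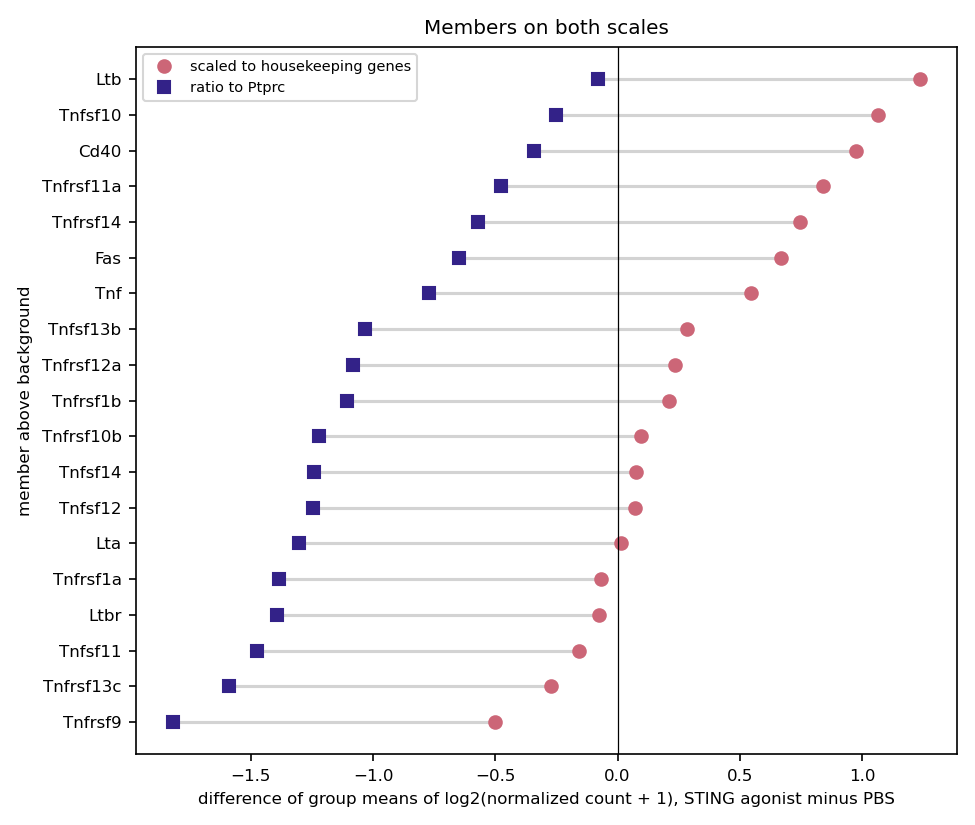
Difference of group means on the log2(normalized count + 1) scale, STING agonist minus PBS, for the 19 members above background, scaled to housekeeping genes (red circles) or as the ratio to Ptprc of the same tumor (blue squares). All ratios lie below 0, from -0.082 for Ltb to -1.82 for Tnfrsf9.

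Signaling genes downstream of the receptors were described from a list of adaptors, kinases, caspases and NF-kB genes, of which 22 were on the panel. At an adjusted p under 0.05 there were 0 calls in edgeR or DESeq2, and the unadjusted line was passed by 2 genes, both higher, beside 17.7% of the panel that was higher. Tnfaip3 encodes A20, an inhibitor of NF-kB signaling that NF-kB itself induces. Its normalized count was 60.1, 74.0, 55.5 and 82.4 in the PBS-treated tumors and 131, 97.8, 83.8 and 100.6 in the STING agonist-treated tumors. The log2 fold change was 0.68 with an SE of 0.24 (edgeR, adjusted p = 0.211). Map3k1, a kinase that activates stress kinase cascades, was at 28.7, 36.5, 35.3 and 31.9 normalized counts in the PBS-treated tumors and at 87.6, 37.9, 49.1 and 55.6 in the STING agonist-treated tumors. Its log2 fold change was 0.80 with an SE of 0.34 (edgeR, adjusted p = 0.245). In both genes the 4 treated tumors lay above the 3 PBS samples. Neither passed the unadjusted line after TMM normalization, with log2 fold changes of 0.41 and 0.53, or with DESeq2's own size factors, with 0.40 and 0.53. Tnfaip3 no longer passed it without PBS-treated tumor 1 (0.63), PBS-treated tumor 3 (0.58) or STING agonist-treated tumor 1 (0.55). Map3k1 no longer passed it without PBS-treated tumor 1 (0.71), PBS-treated tumors 2 and 4 (0.84), PBS-treated tumor 3 (0.85), or STING agonist-treated tumor 1 (0.53), 3 (0.87) or 4 (0.82), or in the methods' test (0.80). With housekeeping scaling, the groups did not overlap in 6 of the 22 genes, all higher, beside 16.8% of the panel, and the list median was 0.23 beside 0.21.

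**Figure D4:**
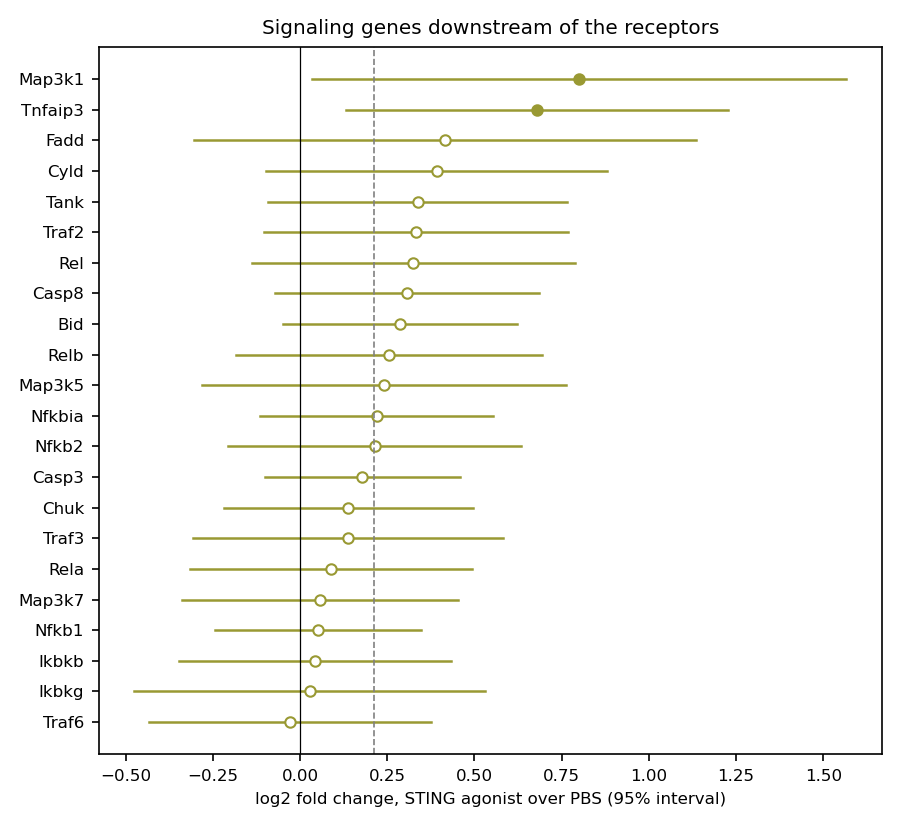
Log2 fold change of 22 signaling genes with 95% confidence intervals from edgeR; filled points have an unadjusted p under 0.05 and the dashed line is the panel median of 0.21. With housekeeping scaling, 21 of the 22 values lie above 0, beside 531 of the 750 panel genes. The list median of 0.23 is close to that of the panel.

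Lymphotoxin acts in lymphoid tissue, and 9 genes of such tissue were on the panel, Lta, Ltb and Ltbr included. With housekeeping scaling in edgeR, Ltb was the 1 gene that passed the unadjusted line. Cxcl13, a chemokine that attracts B cells, was at 49.96, 37.5, 33.9 and 39.9 normalized counts in the PBS-treated tumors and at 10.5, 4.89, 29.6 and 24.7 in the STING agonist-treated tumors. The groups did not overlap, and Cxcl13 was lower after the STING agonist with a log2 fold change of -1.20 and an SE of 0.53 (edgeR, adjusted p = 0.256). Cxcl13 was named after its values were seen. It passed the unadjusted line as lower after TMM normalization (-1.47), in DESeq2 with either scaling (-1.49 and -1.20), in the methods' test (-1.23) and with all 8 tumors separate (-1.18). It also did so without STING agonist-treated tumor 3 (-1.56) or 4 (-1.40). It did not with a mean count of at least 20 (-1.20), without PBS-treated tumor 1 (-1.03), PBS-treated tumors 2 and 4 (-1.24) or PBS-treated tumor 3 (-1.32), or without STING agonist-treated tumor 1 (-1.02) or 2 (-0.90). The other genes of the list, Ccl19, Ccl21a, Ccr7, Cxcr5 and Glycam1, had overlapping groups, and the list median was 0.0047. Glycam1 and Cxcr5 were below background, with raw counts of at most 5 and 9. Glycam1 passed the unadjusted line without STING agonist-treated tumor 2 (1.46) and was at 0.79 without PBS-treated tumor 3. Cxcr5 passed it as lower without STING agonist-treated tumor 3 (-1.45) and was at 0.14 without PBS-treated tumor 3.

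Markers of cell types that express these genes were summed in each tumor. T cell markers, 7 of 7 on the panel and led by Cd3d, summed to 174, 105, 195 and 110.4 normalized counts in PBS-treated tumors 1 to 4 and to 409.9, 221, 208 and 384 in STING agonist-treated tumors 1 to 4. Of these genes, 4 were higher at an unadjusted p under 0.05 (edgeR), the groups overlapped in Cd3d, Cd8a and Cd247, and Cd4 was at or below background. Tumors 1 and 4 of the STING agonist group, in which Ltb and Tnf were high, had the 2 highest sums. This was not particular to T cells, since these tumors were also the 2 highest in Ptprc and in the macrophage, dendritic cell and natural killer cell sums. Macrophage markers, 6 of 7 on the panel and led by Cd68, summed to 1598, 908, 2082 and 874 normalized counts in the PBS-treated and to 2364, 1725, 2042 and 2303 in the STING agonist-treated tumors. The groups overlapped in the sum, and PBS-treated tumors 2 and 4 were the lowest. Emr1 alone was higher at the unadjusted line. The groups did not overlap in Emr1 (means of 150 and 370) and Csf1r (150 and 294), both higher, and Mrc1 had a lower mean after the STING agonist (302 and 252). Dendritic cell markers, 3 of 6 on the panel and led by Itgax, summed to 19.4, 18.7, 25.2 and 27.9 normalized counts in the PBS-treated and to 40.9, 28.1, 33.7 and 36.2 in the STING agonist-treated tumors. This difference came from Itgax, with means of 4.01 and 17.1, while Flt3 had means of 13.2 and 10.1 and Xcr1 was below background. The PBS mean of Itgax was close to that of the probes without a target, 3.96 normalized counts in the PBS samples. Of the 6 markers of B cells, which express CD40 as well, only Cd79b was above background. The part of these cell types in the differences of the members was not tested.

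Markers of natural killer cells, led by Klrk1, summed to a mean of 105 normalized counts in the PBS samples and 152 in the STING agonist-treated tumors, with overlapping groups. This difference came from Klrk1 (40.2 and 90.1), while Ncr1 (14.97 and 16.1), Klrb1c (9.28 and 9.33) and Eomes (40.3 and 36.3) had means close to each other. Endothelial markers, led by Pecam1, summed to means of 286 and 390.1 normalized counts, and the groups did not overlap in the sum. Of its 4 genes this held for Kdr alone (42.8 and 89.1), and the groups overlapped in Pecam1, Cdh5 and Tek. Neutrophil markers, led by S100a8, summed to means of 403 and 461, B cell markers, led by Cd79b, to 42.4 and 50.2, and stromal markers, led by Col3a1, to 14381 and 12742, with overlapping groups in each sum. The stromal genes did not move together. Col3a1 was lower (8164 and 6099) and Col1a1 higher (951 and 1581) at the unadjusted line, and the groups did not overlap in Col3a1 and Pdgfrb, both lower. The sum of the 2 epithelial markers, led by Cdh1, had means of 40.5 and 26.5 normalized counts. It was lower in all 4 STING agonist-treated tumors than in the 3 PBS samples compared, though tumor 3 of the former (34.7) lay just above PBS-treated tumor 4 (34.6) before averaging. The groups overlapped in each of the 2 genes. Hepatocyte markers, led by Ambp, were high in STING agonist-treated tumor 4. Without that tumor, the log2 fold change was 0.97 for Tnfsf10 and 0.86 for Cd40, each with an unadjusted p under 0.05 (edgeR).

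**Figure D5:**
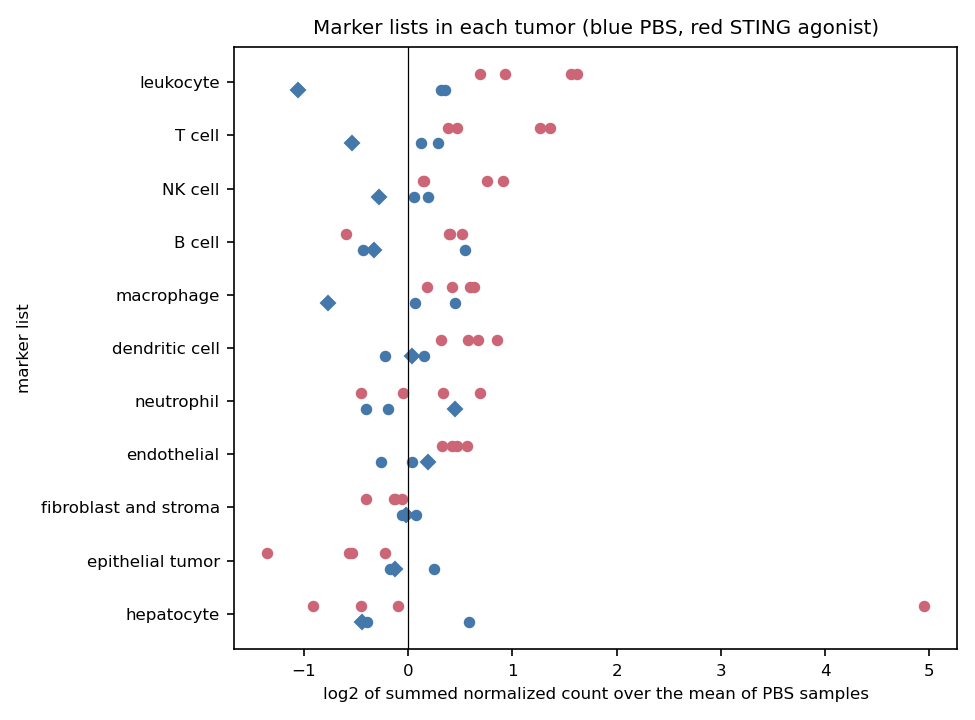
Summed normalized counts of each marker list, as log2 of the sum over the mean of the PBS samples, in PBS-treated (blue, diamond for the averaged tumors 2 and 4) and STING agonist-treated (red) tumors. The leukocyte gene Ptprc and the T cell sum are higher in all 4 STING agonist-treated tumors, and the hepatocyte sum of 1422 in STING agonist-treated tumor 4 stands alone.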

How the data were processed

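The authors extracted RNA with TRIzol, measured it on the NanoString PanCancer Immune Profiling mouse panel, and deposited raw counts of 784 probes for each of 8 tumors, neither scaled nor background-subtracted, with a lowest count of 1. The study normalizes to housekeeping genes with nSolver and R. Its settings are not given in the sources used here. Groups and replicate numbers came from the labels, and age, dose and schedule from the study's methods and results.

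Counts were scaled by the geometric mean of 20 housekeeping genes, which differed between groups by -0.23 to 0.19 on the log2 scale. All 750 genes were fitted, without a filter or covariate, by edgeR 4.0.16 (R 4.3.3) with Benjamini-Hochberg adjustment. This was tested on simulated data whose changes were larger than those of the members, so it does not show whether smaller differences would be called. SEs were derived from the F statistic. All 34 probe transcripts matched their symbols in RefSeq. Members at an unadjusted p under 0.05 or with groups apart, and their pair partners, were given in every tumor. Members and lists were chosen with earlier results of these data known. Alternatives were TMM, DESeq2 1.42.0, the methods' two-sample test, a mean count of at least 20, all 8 tumors separate, a replicate block, and leaving out each sample. Figures were drawn with matplotlib 3.10.9.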

Additional observations from a re-analysis of the deposited data

Results flagged for a closer look

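In 3 of 67 values checked among the 4 STING agonist-treated tumors (34 members, 22 signaling genes and 11 marker sums), 1 tumor lay far from the others. Chance alone gives this in about 1 of 20 such checks. The hepatocyte marker sum was 1422 normalized counts in tumor 4 and 24.4 to 43.2 in the other tumors of the group. Traf6, an adaptor of CD40 and other receptors, was at 125 normalized counts in tumor 2 and at 169 to 171 in the others. The B cell marker sum was 28.1 normalized counts in tumor 2 and 55.6 to 60.7 in the others. No member of the TNF superfamily was among these values.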

How the results depend on the processing

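Tnfsf10 and Cd40 had an unadjusted p under 0.05 in all 14 alternatives, with an adjusted p of 0.0110 to 0.384 for Tnfsf10 and 0.0215 to 0.407 for Cd40 (edgeR and DESeq2). Of the 34 members, 14 had the same sign in every alternative that gave a value and 20 did not. A mean count of at least 20 left 519 genes, 14 members among them, and the other 20 members have no value there.

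The sign of 11 members changed to below 0 with TMM normalization and with DESeq2's own size factors, both of which center on the whole panel. With TMM normalization the log2 fold change was -0.026 for Tnfsf13b, -0.21 for Tnfsf12, -0.15 for Tnfsf14, -0.17 for Tnfsf8, -0.23 for Lta, -0.027 for Tnfrsf1b, -0.033 for Tnfrsf12a, -0.16 for Tnfrsf10b, -0.11 for Tnfrsf11b, -0.19 for Cd27 and -0.19 for Tnfrsf4. With DESeq2's own size factors it was -0.042 for Tnfsf13b, -0.22 for Tnfsf12, -0.15 for Tnfsf14, -0.18 for Tnfsf8, -0.26 for Lta, -0.039 for Tnfrsf1b, -0.046 for Tnfrsf12a, -0.17 for Tnfrsf10b, -0.12 for Tnfrsf11b, -0.22 for Cd27 and -0.18 for Tnfrsf4. With all 8 tumors separate, it was -0.013 for Tnfsf12 and 0.040 for Ccl19. The cause was not tested.

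Leaving out 1 sample at a time changed the sign of members and lymphoid genes with low counts or a small difference. The log2 fold change ran from -1.33 to 0.22 for Tnfsf4, -0.0064 to 0.57 for Tnfsf13b, -0.42 to 0.079 for Tnfsf11, -0.10 to 1.01 for Fasl, -0.63 to 0.62 for Tnfsf13, -0.074 to 0.25 for Tnfsf12, -0.27 to 0.45 for Tnfsf14, -0.17 to 0.21 for Tnfsf8 and -0.14 to 0.18 for Lta. It ran from -0.54 to 0.034 for Tnfrsf13c, -0.003 to 1.17 for Tnfrsf18, -0.069 to 0.23 for Tnfrsf10b, -0.14 to 0.034 for Ltbr, -0.69 to 0.79 for Tnfrsf8, -0.11 to 0.18 for Cd27, -0.32 to 0.80 for Tnfrsf4, -1.45 to 0.14 for Cxcr5 and -0.66 to 0.14 for Ccl19. The cause was not tested.

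DESeq2 called 21 panel genes at an adjusted p under 0.05 with its own size factors and 52 with housekeeping scaling, against 0 in edgeR. Leaving out 1 sample gave 0 to 7 in edgeR, with 1 without PBS-treated tumor 3 and 7 without STING agonist-treated tumor 3. At an unadjusted p under 0.05, leaving out 1 sample gave 84 to 160 panel genes, with 84 without STING agonist-treated tumor 1 and 89 without STING agonist-treated tumor 4. The methods' two-sample test gave 1 ligand, 1 receptor and 4 signaling genes at the unadjusted line, Map3k1 not among them, and TMM normalization gave 1 receptor and 0 signaling genes. DESeq2's own size factors gave 0 signaling genes and all 8 tumors separate gave 5. Leaving out 1 sample gave 1 to 3 ligands, 1 to 3 receptors and 0 to 2 signaling genes. The median of the ligands was 0.64 with a mean count of at least 20, beside 0.25 over the panel genes kept. That setting keeps only the ligands Tnfsf10, Ltb, Tnfsf12 and Tnfsf13b. The ligand median was 0.11 to 0.53 leaving out 1 sample. The median of the receptors was -0.15 with DESeq2's own size factors. Leaving out 1 sample, it was 0.034 (without PBS-treated tumor 1) to 0.32 (without PBS-treated tumor 3). The cause was not tested.

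With the replicate number as a block over all 8 tumors, 4 ligands and 1 signaling gene passed the unadjusted line, Cd70 (1.09) and Tnfsf18 (1.18) among the ligands. Map3k1 (0.74) did not pass it. Tnfrsf11a was at 1.21, Cxcl13 passed the line as lower (-1.37), and the log2 fold change was 0.038 for Tnfsf15, -0.0051 for Tnfsf12, 0.043 for Tnfrsf8 and 0.24 for Ccl19. Tumors with the same number did not resemble each other: their correlations were -0.11 to -0.04, and 0 of 8 tumors correlated best with the tumor of their own number in the other group, so the numbers do not show a pairing.

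With 3 and 4 samples in a group, counting error and the spread between tumors limit what can be called. Of the members, 15 of 34 had a mean count at or below background, and their differences are of low precision. The averaged PBS sample was low in leukocyte genes, and STING agonist-treated tumor 4 was high in hepatocyte genes. Whether the 2 near-identical PBS libraries came from separate tumors is not given in the sources used here.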
